A study of Mus musculus with 6 samples.

Results

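The genes described here are 10 members of the HoxA and HoxB clusters in mouse bone marrow: Hoxa3, Hoxa5, Hoxa7, Hoxa9, Hoxa10, Hoxb2, Hoxb3, Hoxb4, Hoxb5 and Hoxb8. They were taken by symbol from a count table of 47729 genes, by a choice made with earlier results of these data known. Of the 10, 8 had enough reads to be tested. Messenger RNA was sequenced from 3 libraries of mice without the SNORD113-114 cluster (called cluster KO), a group of small nucleolar RNA genes of the imprinted Dlk1-Meg3 region, and from 3 libraries of wildtype mice. All 6 libraries came from whole cell extracts of marrow. The sources used here name no strain, age, way of deletion or sorting of cells, and they tie no library to a single animal, so that the p-values below measure the spread between libraries, which may be technical. The title of the series places its interest in hematopoietic stem cells and the translation machinery, and the comparison asks which genes differ once the cluster is lost.

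Hox genes encode homeodomain transcription factors that lie side by side in clusters, and the order of the genes along a cluster follows the order in which they are used along the body axis. In the marrow the HoxA and HoxB genes are active in stem and early progenitor cells and are shut down as cells mature. Hox proteins bind DNA together with PBX and MEIS partners, MLL (Kmt2a) and its partners keep the genes active, Polycomb complexes silence them, and retinoic acid acts on the genes at the 3′ end of a cluster.

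The libraries held 17663369 to 23459168 counts on genes. The counts could not check the deletion: the 23 small nucleolar RNA genes annotated within and beside Rian, the host transcript, had 1 count in all, and poly(A) libraries capture such RNAs poorly. The groups also differed in sex-linked RNA. Xist, the RNA that coats the inactive X chromosome of female cells, stood at 1.92, 0.0842 and 1.58 CPM (counts scaled to library size, TMM-adjusted) in the cluster KO and at 228, 249 and 248 CPM in the wildtype libraries. Every wildtype library held Y-linked RNA as well, with Ddx3y at 18.2 to 27.9 CPM against 77.8 to 100 CPM in the cluster KO. For all genes below, genotype and the sex makeup of the libraries therefore cannot be told apart.

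Hoxa7 and Hoxa10, at the 5′ side of the HoxA cluster, were higher in cluster KO marrow, 1.77-fold and 1.71-fold. The gene between them, Hoxa9, was the most abundant Hox gene and stood higher in every cluster KO library, by a smaller amount that missed the threshold. No member was called lower. The other 5 tested members (Hoxa3, Hoxa5, Hoxb2, Hoxb4 and Hoxb5) did not pass the test, and Hoxb3 and Hoxb8 had too few reads. Counted together, 2 of 8 tested members (25%) passed edgeR's quasi-likelihood test at a Benjamini-Hochberg adjusted p under 0.05. Of all 15686 genes tested, 27.9% passed, 15.9% higher and 12.1% lower, so the share of members called lies near the background and is not a result about them as a group. For the count of 0 called lower, 0 were lower at an unadjusted p under 0.05 and 0 with DESeq2. The libraries of the 2 genotypes did not overlap for 4 of the 8 tested members, against 46.0% of all tested genes, again near the background. The median log2 fold change (cluster KO over wildtype) was 0.38 over the 8 members and 0.002 over all tested genes. Over all 11 tested Hox genes it was 0.03, so the member value depends on which Hox genes were listed. Every tested member had a lower value once trends of counts with transcript length and GC content were removed.

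The bases before the start sites are printed for Hoxa7, Hoxa9 and Hoxa10, whose cluster KO libraries all lay above the wildtype libraries, and for Hoxb8, the member without a read. Of the 10 members, 7 had a promoter in the RefSeq table (GRCm38.p6), in 8 windows, since Hoxa10 has more than one start. Each window ends at the base before the start and runs 5′ to 3′ on the gene's strand, except that the Hoxa7 run stops where an annotated exon begins. Capitals mark matches, on either strand, to 5 motifs: TGATNNAT (Hox with PBX), TGACAG (MEIS), the CCAAT box, the GC box GGGCGG and the TATA box TATAAA.
Hoxa7, chr6:52218712-52218823, minus strand: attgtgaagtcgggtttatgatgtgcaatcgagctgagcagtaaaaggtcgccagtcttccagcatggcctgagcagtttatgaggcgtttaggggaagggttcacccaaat
Hoxa9, chr6:52227371-52227620, minus strand: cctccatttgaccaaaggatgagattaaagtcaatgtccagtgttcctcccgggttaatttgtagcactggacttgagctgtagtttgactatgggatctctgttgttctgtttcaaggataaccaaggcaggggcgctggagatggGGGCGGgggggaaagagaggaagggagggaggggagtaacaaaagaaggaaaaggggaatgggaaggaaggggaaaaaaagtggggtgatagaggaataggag
Hoxa10, first start, chr6:52240855-52241104, minus strand: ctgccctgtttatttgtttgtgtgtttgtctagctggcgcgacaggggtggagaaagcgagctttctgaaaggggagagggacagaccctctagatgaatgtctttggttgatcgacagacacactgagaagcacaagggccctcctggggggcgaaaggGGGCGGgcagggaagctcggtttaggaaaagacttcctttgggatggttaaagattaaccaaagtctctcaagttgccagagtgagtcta
Hoxa10, second start, chr6:52234940-52235189, minus strand: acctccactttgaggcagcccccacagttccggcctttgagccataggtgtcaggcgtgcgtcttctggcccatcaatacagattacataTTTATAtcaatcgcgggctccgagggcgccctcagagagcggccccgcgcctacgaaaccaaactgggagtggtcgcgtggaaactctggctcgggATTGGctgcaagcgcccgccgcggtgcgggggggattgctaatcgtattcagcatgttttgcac
Hoxb8, chr11:96281655-96281904, plus strand: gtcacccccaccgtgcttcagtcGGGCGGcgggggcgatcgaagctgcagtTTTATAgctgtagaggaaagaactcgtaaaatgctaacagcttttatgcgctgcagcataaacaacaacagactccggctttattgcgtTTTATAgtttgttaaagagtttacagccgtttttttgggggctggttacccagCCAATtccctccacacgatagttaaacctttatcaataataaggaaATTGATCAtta
The Hoxa7 bases held none of the 5 motifs. Hoxa9 and the first Hoxa10 start held a GC box, 103 and 90 bases before the start, a motif found in 32.7% of 32851 promoter windows of 250 bases. The second Hoxa10 start had CCAAT 64 bases and a TATA match 160 bases upstream, both on the opposite strand. The Hoxb8 window held 4 of the 5 motifs, with the Hox and PBX match 11 bases before the start, a motif present in 7.68% of windows, and TATA matches 199 and 110 bases upstream (12.4% of windows hold that motif). CCAAT was found in 33.9% of windows and the MEIS motif in 15.9%. Among the windows not printed, Hoxa3 had a MEIS match 13 bases upstream, Hoxa5 a CCAAT match 204 bases upstream and Hoxb4 none of the 5. These are letter matches only.

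Hoxa9, a factor needed for stem and progenitor cells to expand and a driver of leukemia when overexpressed, lies at chr6:52223100-52231089 (mm10, minus strand). Its level was 74.4, 81.6 and 78.1 CPM in the cluster KO libraries and 64.8, 55.6 and 67.7 CPM in the wildtype libraries. All 3 cluster KO libraries lay above all 3 wildtype libraries, the nearest at 74.4 and 67.7 CPM. The log2 fold change was 0.32 (SE 0.13), with a 95% interval of 0.03 to 0.60 and an adjusted p of 0.0938 in edgeR. DESeq2 called it with an adjusted p of 0.0486. The value fell to 0.07 once trends of counts with transcript length and GC content were removed.

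Hoxa7 (chr6:52214491-52221854, minus strand), which acts in the growth of early progenitors, stood at 16.7, 22.5 and 15.9 CPM in cluster KO and at 9.82, 11.3 and 10.1 CPM in wildtype libraries. The groups did not overlap, the wildtype libraries lay close together and the second cluster KO library was the highest. The log2 fold change was 0.82 (SE 0.20, 95% interval 0.37 to 1.27; edgeR adjusted p = 0.0157). The edgeR adjusted p rose to 0.0857, 0.0534 and 0.0602 without cluster KO replicate 2, wildtype replicate 1 and wildtype replicate 3, in fits with fewer libraries. The log2 fold change was then 0.65, 0.78 and 0.80. Of its 2876 exon bases, 586 (20.4%) also belong to the antisense gene Hoxaas3, whose reads unstranded libraries cannot separate.

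Hoxa10 (chr6:52231197-52240854, minus strand), known for its part in myeloid and megakaryocyte progenitors, measured 14.7, 16.6 and 21.8 CPM in cluster KO against 8.64, 9.79 and 12.7 CPM in wildtype libraries. The groups did not overlap, and the third library of each genotype was its highest. The log2 fold change was 0.77 (SE 0.23, 95% interval 0.26 to 1.28; edgeR adjusted p = 0.031). It passed in 7 of 14 alternatives: the value was 0.50 (adjusted p = 0.117) with length and GC trends removed, and the adjusted p was 0.0774, 0.104, 0.104 and 0.102 without cluster KO replicates 2 and 3 and wildtype replicates 1 and 2.

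**Figure D1:**
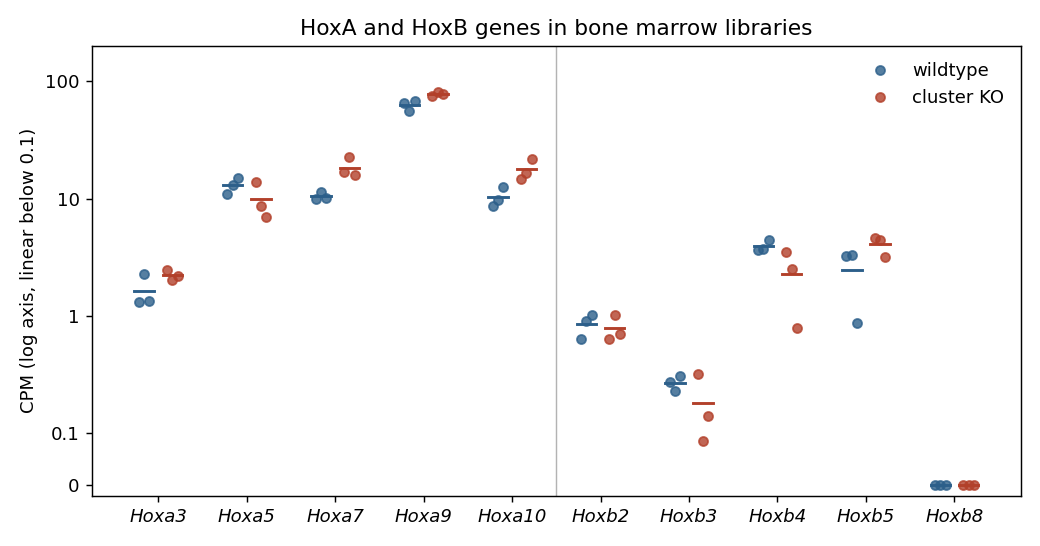
Level of each of the 10 genes in CPM (log axis, linear below 0.1), with 1 point for each library (3 wildtype, 3 cluster KO) and a bar at the mean of each group. The Hoxa7, Hoxa9 and Hoxa10 points of the cluster KO lie above all wildtype points, the Hoxb4 points below them, and Hoxb8 is at 0 in all 6 libraries.

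Hoxa5 and Hoxa3 lie further to the 3′ side. Hoxa5 (chr6:52201754-52204587), which restrains erythroid and favours myeloid development, stood at 13.8, 8.63 and 7.02 CPM in cluster KO and at 10.9, 13.02 and 15.01 CPM in wildtype libraries. The groups overlapped through cluster KO replicate 1, which lay above a pair of wildtype libraries, while the other cluster KO libraries lay below all 3. The log2 fold change was -0.40 (SE 0.28, 95% interval -1.01 to 0.21; edgeR adjusted p = 0.30). Without cluster KO replicate 1 it was -0.74, with an adjusted p of 0.0397. Hoxa3 (chr6:52169062-52213336), which is best known for patterning the pharyngeal arches and thymus, had 54, 48 and 47 raw counts against 29, 40 and 26, or 2.02 to 2.47 CPM against 1.31 to 2.26 CPM. The groups overlapped through wildtype replicate 2, and the log2 fold change of 0.45 (SE 0.40, 95% interval -0.45 to 1.34) did not pass. Its exons share up to 503 of 6014 bases with a single antisense gene, Hoxaas2.

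The HoxB members were much scarcer. Hoxb4 (chr11:96318267-96321638, plus strand), which expands stem cells when supplied in excess, stood at 3.52, 2.48 and 0.790 CPM in cluster KO and at 3.66, 3.74 and 4.41 CPM in wildtype libraries. All 3 cluster KO libraries lay below the wildtype libraries, the first by a narrow margin and the third by far, and the highest cluster KO value was 4.45 times the lowest. The log2 fold change of -0.80 (SE 0.48, 95% interval -1.85 to 0.26; edgeR adjusted p = 0.237) did not pass. It was -0.39 (adjusted p = 0.479) without cluster KO replicate 3 and -1.26 (adjusted p = 0.0739) without cluster KO replicate 1, in edgeR.

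Hoxb5 (chr11:96303336-96306121), a gene used to mark long-term stem cells, measured 4.61, 4.46 and 3.16 CPM in cluster KO against 3.21, 3.28 and 0.871 CPM in wildtype libraries. Here wildtype replicate 3 was the library apart, and the groups overlapped at about 3 CPM. The log2 fold change was 0.73 (SE 0.47, 95% interval -0.31 to 1.77; edgeR adjusted p = 0.268), and 0.33 without that library. The libraries that stood apart for Hoxb4 and for Hoxb5 were thus of different genotypes.

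Hoxb2 (chr11:96350525-96354012), a 3′ gene of the cluster that patterns the hindbrain, had 14, 24 and 15 raw counts in cluster KO and 14, 16 and 20 in wildtype libraries. The groups overlapped throughout, and the log2 fold change was -0.12 (SE 0.53, 95% interval -1.30 to 1.05). Hoxb3 (chr11:96323326-96347930), which acts beside Hoxb4 in progenitors, had 7, 2 and 3 counts against 6, 4 and 6 and was not tested. Hoxb8 (chr11:96281905-96285315), which is used to hold myeloid progenitors in culture, had 0 counts in all 6 libraries, which allows up to 3 counts or 0.126 to 0.17 CPM in each. For Hoxb2 and Hoxb3 a large part of the exons is shared with the antisense gene Hoxb3os, 953 of 3488 bases (27.3%) and 2250 of 4251 bases (52.9%). At these counts no change smaller than the intervals was detectable.

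Levels were compared between genes as CPM per kilobase of exon. They are levels of the cell mixture that was extracted, for which the sources name no sorting or enrichment. Its wildtype means were 354 CPM for Kit, 169 CPM for Hba-a1, 233 CPM for Hbb-bs and 4417 CPM for Car1. Whether the mixture matches unsorted marrow was not tested. In wildtype marrow the order was Hoxa9 (11.2 ± 1.13, SD, n = 3), Hoxa5 (6.92 ± 1.08), Hoxa7 (3.62 ± 0.279), Hoxa10 (3.17 ± 0.632), Hoxb4 (1.53 ± 0.159), Hoxb5 (0.881 ± 0.493), Hoxa3 (0.272 ± 0.0905), Hoxb2 (0.245 ± 0.0575) and Hoxb3 (0.0632 ± 0.00954), with Hoxb8 at 0. The library ranges of Hoxa7 and Hoxa10 overlapped, as did those of Hoxb5 with Hoxa3 and of Hoxa3 with Hoxb2. In cluster KO marrow Hoxa9 was again first (14.0 ± 0.647), followed by Hoxa7 (6.39 ± 1.25), Hoxa10 (5.41 ± 1.12) and Hoxa5 (5.24 ± 1.90), whose neighbouring ranges overlapped. By exon bases Hoxa5 thus ranked above Hoxa7 in wildtype marrow, while in cluster KO marrow the 3 genes after Hoxa9 could not be ordered. That order depends on the length used. The exons of all transcripts came to 2876 bases for Hoxa7 and 1877 for Hoxa5, and the median transcript to 725 and 1877 bases. With the median transcript length Hoxa7 would rank above Hoxa5 in both groups. Hoxb5 (1.46 ± 0.287) and Hoxb4 (0.882 ± 0.537) overlapped in cluster KO marrow, where Hoxb4 had ranked above Hoxb5 in wildtype. This difference depends on the length used as well. Hoxb5 has 2786 exon bases and a median transcript of 1895 bases, and both lengths are 2566 for Hoxb4. With the median transcript length the 2 genes would overlap in wildtype too. Hoxa9 lay at percentile 74.9 of all tested genes by CPM per kilobase of exon, and Hoxb2 at 6.71.

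Ratios of genes of the same cluster within a library do not depend on its scaling, though they still carry trends of counts with transcript length and GC content. The pairs were chosen with their values known, so they are given as a description. Hoxa7 had 1.21, 2.61 and 2.26 counts for each Hoxa5 count in cluster KO against 0.897, 0.870 and 0.672 in wildtype libraries. The groups did not overlap: Hoxa7 outnumbered Hoxa5 in every cluster KO library and in none of the wildtype. Hoxa10 per Hoxa9 was 0.198, 0.203 and 0.279 against 0.133, 0.176 and 0.187, also apart. Hoxa7 per Hoxa9 was 0.225, 0.276 and 0.203 against 0.151, 0.204 and 0.149, where the lowest cluster KO library met the highest wildtype library. Hoxb5 per Hoxb4 was 1.31, 1.797 and 4.0 against 0.877, 0.879 and 0.198, resting on low counts. Hoxa9 alone made up 56.9 ± 1.82% (SD, n = 3) of all Hox counts in cluster KO against 56.7 ± 3.50% in wildtype libraries, which differ by less than the spread between libraries.

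**Figure D2:**
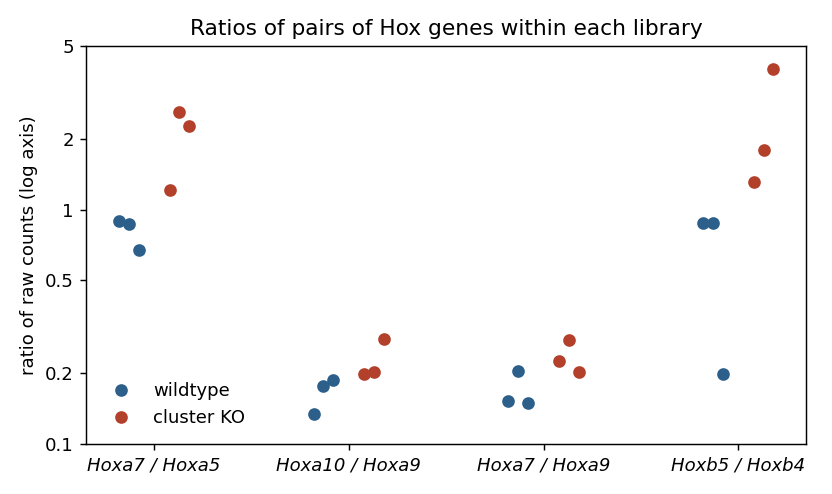
Ratio of raw counts of 4 pairs of Hox genes within each library (log axis), 1 point for each of 3 wildtype and 3 cluster KO libraries. Hoxa7 per Hoxa5 lies between 1.21 and 2.61 in cluster KO and between 0.672 and 0.897 in wildtype libraries.

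Summed over members, the HoxA genes came to 122, 131 and 125 CPM in cluster KO and to 95.6, 92.0 and 107 CPM in wildtype libraries. The HoxB members came to 9.09, 8.04 and 4.79 CPM against 7.78, 8.15 and 6.61 CPM. The HoxA sums of the genotypes were apart, and the HoxB sums overlapped. Across the 6 libraries log2 CPM of Hoxa9 and Hoxa10 had a Pearson r of 0.828, Hoxa7 and Hoxa9 0.789, Hoxa5 and Hoxb4 0.893, and Hoxa10 and Hoxb4 -0.787. These points share the genotype split and the library scaling and are a description only.

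Most of the other Hox genes were near the limit of detection. Hoxa2 and Hoxa4, with 193 and 111 counts in all, were not scarcer than the member Hoxb2 with 103. Of 39 Hox genes in the table, 15 had 0 counts in all 6 libraries, 6 had 1 to 9 counts and 11 were tested, all 11 of them in HoxA and HoxB. None of the 18 HoxC and HoxD genes was tested, and the 9 HoxD genes had no read. Beside the members, Hoxa2 (-0.18, SE 0.46, log2 fold change), Hoxa4 (-1.08, SE 0.58) and Hoxb6 (0.03, SE 0.65) were tested. Of these 3, 0 passed in edgeR, 0 had an unadjusted p under 0.05 and 0 passed in DESeq2. Hoxa4, between Hoxa3 and Hoxa5, had 19, 10 and 9 raw counts in cluster KO and 32, 13 and 28 in wildtype libraries, which overlap. Hoxb7 had 4, 16 and 1 counts against 9, 2 and 19. Hoxa6, Hoxc5, Hoxc6 and Hoxc9 had 12 to 28 counts in all.

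The clusters also hold 29 annotated genes that are not Hox genes, most of them antisense or other noncoding RNAs, of which 12 had at least 10 counts and 6 were tested. None passed in edgeR or in DESeq2, and 2 had an unadjusted p under 0.05. Hoxb3os, antisense to Hoxb3 and Hoxb2, stood at 1.37, 1.35 and 1.02 CPM in cluster KO and at 2.85, 1.47 and 3.69 CPM in wildtype libraries. The groups did not overlap, and the log2 fold change was -1.10 (SE 0.45; edgeR adjusted p = 0.0909). Gm11539, a pseudogene at the 5′ side of HoxB, had a like value of -1.10 (SE 0.44; edgeR adjusted p = 0.0881). Hoxaas3, which runs antisense to Hoxa7, stood at 3.97, 4.59 and 2.37 CPM against 3.35, 4.70 and 3.69 CPM, with a log2 fold change of -0.10 (SE 0.34) while Hoxa7 rose. Hotairm1, a myeloid noncoding RNA at the 3′ end of HoxA, had -0.44 (SE 0.63), Hoxaas2 -0.80 (SE 0.62) and Hoxb5os 0.14 (SE 0.48). Among untested genes, Gm27477 had 6, 1 and 2 counts against 10, 7 and 8, Gm29430 had 2, 2 and 0 against 11, 2 and 9, and Gm53, Gm15050 and 5730596B20Rik had 11 to 34 counts in all with overlapping groups.

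**Figure D3:**
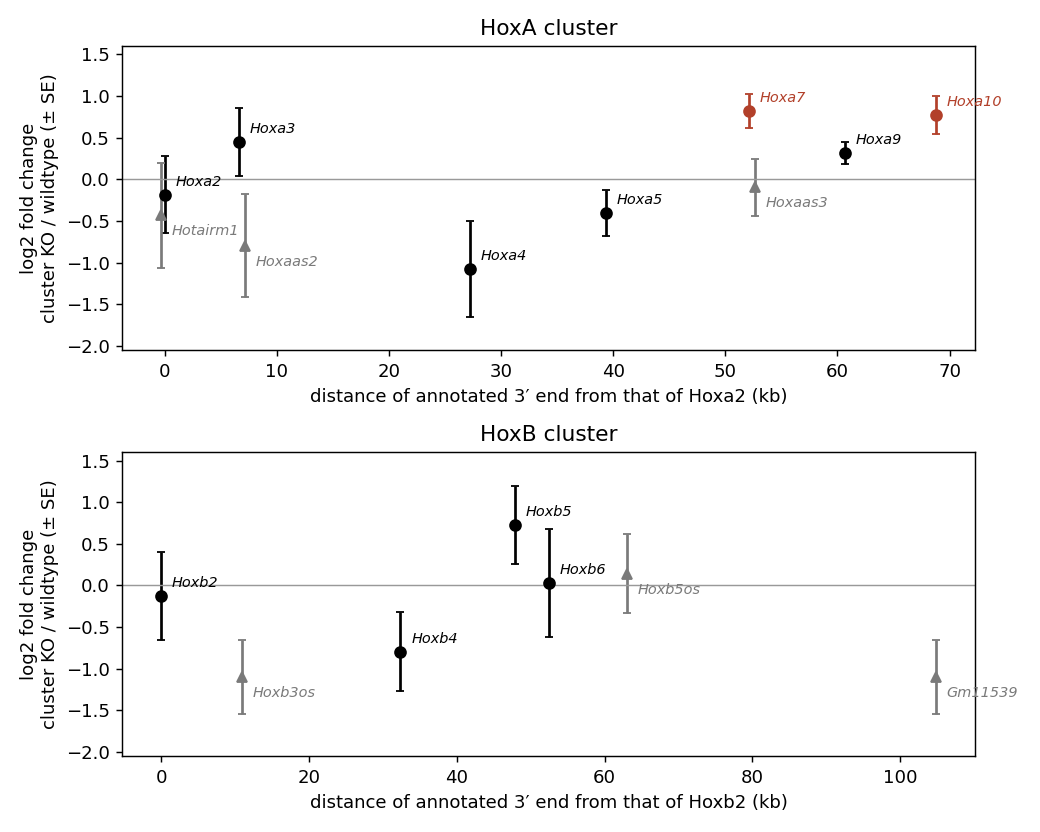
Log2 fold change (cluster KO over wildtype, bars ± SE) of each tested gene of the HoxA (top) and HoxB (bottom) clusters against the distance of its annotated 3′ end from that of Hoxa2 or Hoxb2, in kilobases, counted toward the 5′ side. Circles are Hox genes, triangles other genes, and red marks the genes with an adjusted p under 0.05. Hoxa7 at 0.82 and Hoxa10 at 0.77 are the red points, Hoxa4 at -1.08 and Hoxa5 at -0.40 lie to their 3′ side.

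Over 9 tested genes of the list of Hox partners, TALE homeodomain genes and the PBX-interacting Pbxip1, the median log2 fold change was 0.02. Meis1, which binds with Hoxa9, stood at 149, 175 and 183 CPM against 138, 152 and 132 CPM. Its groups overlapped by 1 library and the change of 0.26 (SE 0.12; edgeR adjusted p = 0.133) did not pass.

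Of 22 tested genes that keep Hox genes active, 2 rose and 6 fell, with a median of -0.28. Inside the MLL complexes the members went different ways. Ash2l, a core subunit, rose from 61.1 to 69.1 CPM in wildtype to 91.0 to 142 CPM in cluster KO libraries (log2 fold change 0.88, SE 0.16; edgeR adjusted p = 0.0053). Dpy30, another core subunit, fell by 0.61 and Hcfc1, a partner of MLL, fell by 0.95 on the log2 scale. With length and GC trends removed Hcfc1 was at -0.50, and with the replicate block as well the edgeR adjusted p was 0.0535 for Hcfc1 and 0.0572 for Dpy30. Dot1l, the histone H3 lysine methyltransferase recruited by MLL fusions, fell by 0.90 (SE 0.21; edgeR adjusted p = 0.0131), a call lost without cluster KO replicate 2 (0.0626), wildtype replicate 2 (0.0589) or wildtype replicate 3 (0.0502). Kmt2a itself (-0.46, SE 0.19, adjusted p = 0.0909) and Men1, its menin partner (0.31, SE 0.17, adjusted p = 0.204), did not pass in edgeR, and the Kmt2a value was 0.0028 with length and GC trends removed. Kdm6a, a demethylase that opposes Polycomb, fell by 1.12, and it is X-linked and escapes X inactivation, as Hcfc1 is X-linked, so for them the sex makeup given above stands beside the value. Cdx1, Cdx2 and Cdx4, activators of Hox genes in the embryo, had 0 counts.

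Of 30 Polycomb genes, all tested, 6 rose and 4 fell, with a median of 0.01. Rbbp4 and Rbbp7, histone-binding subunits shared by Polycomb and several other complexes, rose by 1.47 (SE 0.25) and 0.71 (SE 0.14). Rbbp4 stood at 89.2, 130 and 189 CPM in cluster KO against 58.1, 47.4 and 41.5 CPM in wildtype libraries, with no overlap. Cbx8, a chromodomain subunit, rose by 1.06 (SE 0.25), from 5.28 to 7.83 CPM to 10.6 to 15.6 CPM. Jarid2, which guides the complex to its targets, fell by 0.72 (SE 0.17). The edgeR adjusted p rose to 0.0536 for Jarid2 without wildtype replicate 3, and to 0.0574 and 0.0524 for Cbx8 without cluster KO replicate 2 and wildtype replicate 3. Ezh2, the methyltransferase, stood at 164 to 177 CPM against 175 to 192 CPM, with a log2 fold change of -0.10 (SE 0.11; edgeR adjusted p = 0.493).

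Of 12 tested genes of retinoic acid supply and reception, 2 rose and 3 fell, with a median of -0.06. Rxrg, a retinoid receptor, rose from 2.26, 2.94 and 1.28 CPM in wildtype to 4.98, 13.3 and 14.3 CPM in cluster KO libraries (log2 fold change 2.33, SE 0.44; edgeR adjusted p = 0.00558). The first cluster KO library was the lowest of its group and still above all wildtype libraries. Dhrs3, which turns retinal back into retinol, rose by 1.01 (SE 0.23). Aldh1a3 and Aldh1a1, which make retinoic acid, fell by 0.88 (SE 0.24) and 0.49 (SE 0.14). Neither call held in every setting. With the replicate block the edgeR adjusted p was 0.0653 for Aldh1a3 and 0.1 for Aldh1a1. Without cluster KO replicate 2, wildtype replicate 2 and wildtype replicate 3, the log2 fold change of Aldh1a3 was -0.72, -0.87 and -0.71. Its edgeR adjusted p was then 0.101, 0.0734 and 0.101, in fits with fewer libraries. The edgeR adjusted p of Aldh1a1 was 0.107, 0.0634, 0.112 and 0.113 without cluster KO replicates 2 and 3 and wildtype replicates 2 and 3.

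Of 15 tested genes reported as targets of HOXA9 and MEIS1, 3 rose and 5 fell, with a median of -0.09. Flt3, a cytokine receptor of early progenitors that also stands on the stem and progenitor marker list, rose from 19.9 to 22.5 CPM to 38.6 to 42.7 CPM (log2 fold change 0.94, SE 0.15; edgeR adjusted p = 0.00297). Camk2d, a calcium-dependent kinase, rose by 0.71 (SE 0.13). Pim1, a survival kinase, fell from 33.6, 44.95 and 51.6 CPM in wildtype to 17.3, 11.7 and 7.81 CPM in cluster KO libraries, a log2 fold change of -1.82 (SE 0.28; edgeR adjusted p = 0.00291). Trib2, a pseudokinase, fell by 0.88 (SE 0.14). Over the 5 lists together, 13 of 87 tested genes rose and 19 fell, beside 15.9% and 12.1% of all tested genes. The share that rose lay near the background, and the share that fell lay above it. The lists were chosen with earlier results of these data known, and no test was run on them as sets, so nothing particular to these lists follows from the counts.

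**Figure D4:**
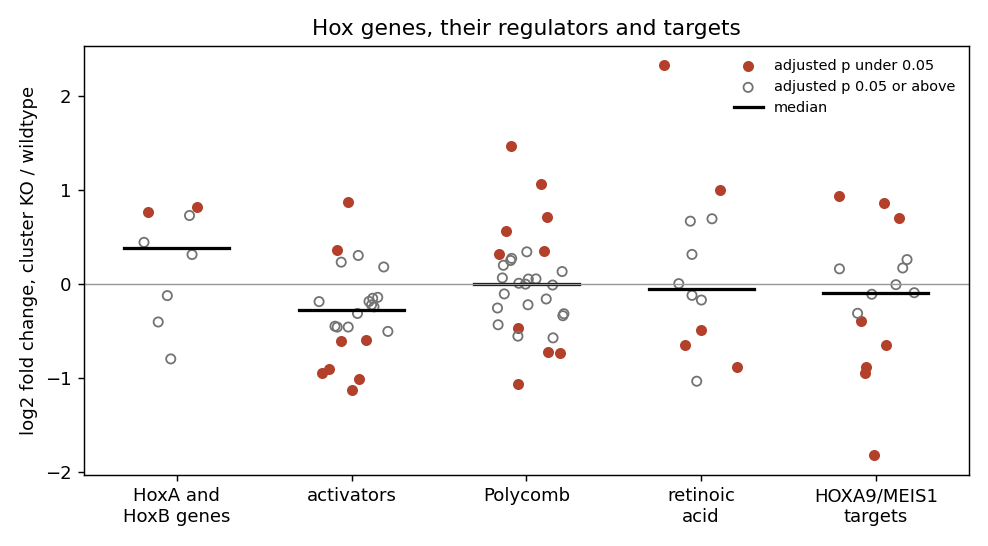
Log2 fold change (cluster KO over wildtype) of each tested gene of the HoxA and HoxB members and of 4 lists (activators, Polycomb, retinoic acid, HOXA9 and MEIS1 targets), red where the adjusted p is under 0.05, with a bar at each median. The medians run from -0.28 for the activators to 0.38 for the members, and each list holds genes on both sides of 0.

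RNA of cell type markers differed between the groups, whose genotype and sex makeup cannot be told apart. Stem and progenitor markers summed to 1332, 1320 and 1350 CPM in cluster KO and 1175, 1157 and 1217 CPM in wildtype libraries, and of 13 tested 5 rose, led by Procr (log2 fold change 1.38), and 2 fell, led by Gata2 (-0.67). The 13 markers, the 10 of the B lineage and those of the other lists named next were all read in at least 1 library, so no list had a marker at 0 throughout. Set against that sum, the 10 Hox genes together gave 9.85, 10.6 and 9.61 CPM per 100 CPM of stem and progenitor markers in cluster KO and 8.79, 8.66 and 9.32 in wildtype libraries, which do not overlap but lie closer than the Hox sums themselves. In bulk samples, fewer cells of a type and less RNA per cell cannot be told apart.

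Markers of mature and committed cells also differed. B-lineage markers summed to 1971 to 2094 CPM in cluster KO and 620 to 662 CPM in wildtype libraries, and 7 of 10 rose, led by Cd79a (2.20) and Igll1 (1.58). Megakaryocyte markers summed to 116 to 162 CPM against 303 to 416 CPM, and 3 of 6 fell, led by Itga2b (-1.30) and Pf4 (-1.86). Neutrophil markers summed to 10577 to 20060 CPM against 6239 to 12044 CPM, and 3 of 10 rose, with Ngp (1.52) and Ltf (1.54) first. Monocyte markers summed to 93.2 to 104 CPM against 50.6 to 63.0 CPM, and 2 of 6, Ly86 (1.06) and Irf8 (0.75), rose. Of 8 erythroid markers 3 fell, Hba-a1 (-1.41) and Hbb-bs (-1.43) first, with sums of 7195 to 10448 CPM against 7860 to 8808 CPM. Of 7 tested T and NK markers 2, Lck (0.90) and Trbc2 (1.12), rose, with sums of 375 to 523 CPM against 350 to 448 CPM. Cpa3 (1.22) rose among 4 tested mast cell and basophil markers, with sums of 151 to 179 CPM against 61.6 to 102 CPM. Pecam1 (0.67) rose among 7 tested markers of stroma and endothelium, with sums of 53.3 to 152 CPM against 35.0 to 79.1 CPM. Some of these calls were lost under other settings in edgeR. With length and GC trends removed the log2 fold change of Irf8 was 0.46 (adjusted p = 0.0918) and that of Hbb-bs -1.27 (adjusted p = 0.0598), and with no filter on low counts that of Hbb-bs was -1.39 (adjusted p = 0.202). Leaving out libraries gave further losses, given here as edgeR adjusted p. Ly86 was at 0.061 and 0.0576 without wildtype replicates 2 and 3, and Irf8 at 0.0698, 0.0653, 0.085 and 0.0517 without cluster KO replicates 2 and 3 and wildtype replicates 2 and 3. Hbb-bs was at 0.163, 0.219, 0.0732 and 0.0872 without cluster KO replicates 1 and 3 and wildtype replicates 2 and 3. Trbc2 was at 0.051, 0.0687 and 0.0627 without cluster KO replicate 2 and wildtype replicates 2 and 3, and Pecam1 at 0.055, 0.0548 and 0.0511 without cluster KO replicate 2 and wildtype replicates 1 and 3. The part of any of these in the values of the Hox genes was not tested.

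The fold changes of the members were also computed under 14 other settings of scaling, filter, test, replicate block, length and GC correction and left-out libraries. Hoxa7 ran from 0.65 to 0.91 and passed in 10 of the 14, and Hoxa10 ran from 0.50 to 0.94. Hoxa9 ran from 0.07 to 0.37 and Hoxa5 from -0.74 to -0.21, and each passed in 1. Hoxa3 (0.14 to 0.75), Hoxb4 (-1.26 to -0.39) and Hoxb5 (0.33 to 0.99) kept their sign and passed in none, and Hoxb2 changed sign in 1.

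**Figure D5:**
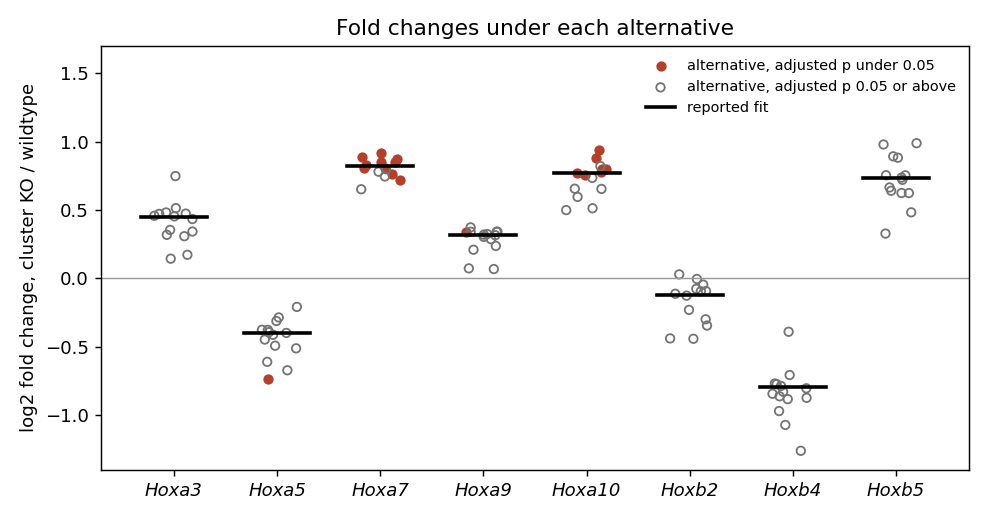
Log2 fold change (cluster KO over wildtype) of the 8 tested members in the reported fit (bar) and under each alternative (points, filled where the adjusted p is under 0.05). Hoxa7 stays between 0.65 and 0.91, Hoxa10 between 0.50 and 0.94, and Hoxb2 lies on both sides of 0.

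The genes whose levels ran most like the mean of the members were sought among 11194 protein-coding genes, by Pearson's r over the 6 libraries with the mean standardised log2 CPM of the tested HoxA members. These were Slfn8 (0.998), Wfdc2 (0.996), Rsph9 (0.993) and S100a3 (0.992), each higher in all cluster KO than in all wildtype libraries, as with 23.1 to 24.1 CPM against 18.1 to 20.1 CPM for Slfn8. For the tested HoxB members they were Ccser2 (0.9747), Zbtb43 (0.971), Fzd5 (0.970) and Kdm3b (0.967), whose groups overlapped, as with 14.9 to 26.8 CPM against 18.8 to 22.5 CPM for Ccser2. The members did not all follow these means. Hoxa5 had an r of -0.23, -0.54, -0.58 and -0.63 with Hoxa3, Hoxa7, Hoxa9 and Hoxa10. Hoxb5 had -0.46 with Hoxb2 and -0.28 with Hoxb4, and Hoxb2 had 0.25 with Hoxb4. With 6 points that share genotype and library, so many candidates give high values readily, and the values are a description only.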

How the data were processed

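Bone marrow RNA of 3 cluster KO and 3 wildtype libraries, grouped by title, was measured with an unstranded Clontech poly(A) and Nextera XT chemistry, and the 6 libraries were pooled for sequencing, per the labels' protocols. The authors deposited raw read counts per Ensembl gene, made with bcl2fastq, TopHat2 and HTSeq on mm10, per the submitters' processing notes. Versions, annotation release and counting mode were not given in the sources used here. Reads of overlapping antisense genes cannot be told apart.

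HTSeq's summary lines (13.4 to 16.8% of reads with several alignments, 7.29 to 11.1% outside genes, 2.71 to 2.95% ambiguous) were left out. Positions and lengths came from GENCODE M21 (GRCm38), which matched 47310 of 47729 genes, and promoters from RefSeq (GRCm38.p6).

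Genotypes were compared with edgeR 4.0.16 in R 4.3.3 (TMM, filterByExpr with a minimum count of 10, robust quasi-likelihood F-test, Benjamini-Hochberg adjustment over 15686 genes, threshold 0.05), tested on simulated data. CPM used TMM-scaled library sizes, and exon bases gave CPM per kilobase. A count of 0 was read as at most 3 counts (95% confidence, counting error only). Alternatives were DESeq2 1.42.0, its size factors, upper quartile factors, no filter, at least 1 CPM in 3 libraries, a replicate block, length and GC trends removed and each library left out.

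The members and lists were chosen with earlier results of these data known. Named genes were all 10 members, other Hox and cluster genes with at least 10 counts in all, up to 4 called genes of smallest p in each of 5 Hox pathway lists plus Meis1, Kmt2a, Men1, Dot1l and Ezh2, 2 per marker list, and the 4 most alike genes. Likeness left out sex-linked genes and those under 1 CPM and used a prior count of 2. Some genes that this rule names are not reported here.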

Additional observations from a re-analysis of the deposited data

How the results depend on the processing

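Over the alternatives, the number of members called higher was 2 in the reported fit, 3 with the DESeq2 test, 1 with upper quartile factors, 1 with length and GC trends removed, 0 with these trends removed together with the replicate block, and 0 to 2 without single libraries; the number called lower was 0 to 1 without single libraries. The other Hox genes gave 0 calls in every alternative run. Once the mean of each gene within its genotype was taken off, log2 CPM of same-numbered libraries correlated at -0.122, 0.015 and -0.089. Of the cluster KO libraries only replicate 2 correlated best with its own number. These values show no pairing by replicate number, but 3 libraries for each genotype are too few to exclude it. The replicate block left 2 members called (Hoxa7 0.80, Hoxa10 0.77) and lowered the calls over all genes from 2487 higher and 1895 lower to 1331 and 865, and to 1254 and 943 with length and GC trends removed as well, where the Hoxa7 adjusted p was 0.0501. Without single libraries these counts ran from 1258 to 3151 and from 742 to 2579, lowest without cluster KO replicate 2 and highest without cluster KO replicate 1. Upper quartile factors shifted the median of all tested genes to -0.10 and the split to 2100 higher and 2411 lower (46.6% higher, against 56.8%), with Hoxa7 at 0.72 and Hoxa10 at 0.65 (adjusted p = 0.0508 in edgeR). The 13 higher and 19 lower calls of the Hox pathway lists became 8 and 12 with the replicate block, 10 and 8 with trends removed as well, and 8 to 15 and 8 to 29 without single libraries. Fold changes that changed sign, all of genes not called, were Hoxb2 (0.029 without wildtype replicate 3, -0.35 to 0.029 over the left-out libraries), Kmt2a (0.0028 with trends removed), Hoxa2 (-0.38 to 0.077, positive without cluster KO replicate 2), Hoxaas3 (-0.30 to 0.13, positive without cluster KO replicate 3 or wildtype replicate 2), Hotairm1 (-0.70 to 0.049, positive without wildtype replicate 2), Hoxb5os (-0.31 to 0.40, negative without cluster KO replicate 1) and Hoxb6 (-0.077 with upper quartile factors, -0.058 with the replicate block, -0.28 with trends removed, -0.37 with both, and -0.19 to 0.39 over the left-out libraries, negative without cluster KO replicate 1 or 3 or wildtype replicate 1). Of 33 called genes named beside the members, 21 passed in every alternative run; the cause of the losses was not tested. At under 100 counts per library, Hoxa3, Hoxb2 and Hoxb4 had SEs of 0.40 to 0.53 on the log2 scale, and Hoxb2 was not testable at 1 CPM in 3 libraries.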

Other observations

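Hoxa11os, antisense to Hoxa11 at the 5′ end of the HoxA cluster, had 15, 4 and 0 raw counts in cluster KO and 0 in all 3 wildtype libraries, too few for the test. Hoxa11 itself had 1 count in all. Of the microRNA genes of the clusters, Mir10a had 2 counts in cluster KO replicate 2 and 3 in wildtype replicate 3, and Mir196b and Mir196a-1 had 0 in all 6 libraries, in a poly(A) chemistry that captures microRNAs poorly.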
